A study of Mus musculus with 50 samples.

Results

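Interferon response genes are genes that cells switch on when interferon, a secreted antiviral signal, reaches them. The 39 described here were taken by gene symbol from a set of well-known mouse members: 39 of the 55421 genes in each of 3 transcript tables and 28 of the 17043 genes in the fourth, which leaves out any gene at 0 in any of its libraries. Missing from it are Isg15, Ifit1, Ifit3, Irf7, Usp18, Mx1, Mx2, Oas1b, Rtp4, Ifi44 and Cxcl10. The symbols, not measured values, define the set, though it was drawn up with earlier results of these data known.

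Interferon acts through receptors on the cell surface and the kinases Jak1, Jak2 and Tyk2, which phosphorylate transcription factors such as Stat2. Stat2 and Irf9 belong to the complex that binds the interferon-stimulated response element, while the gamma-activated site serves the response to interferon gamma. The target genes encode sensors of viral nucleic acid, proteins that block viral RNA and protein synthesis, GTPases that attack intracellular parasites, and parts of the machinery that loads peptides onto major histocompatibility complex (MHC) class I. Pluripotent stem cells are known for making little interferon and for responding to it weakly.

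The study compared RNA levels after knockdown of β-catenin, the effector of Wnt signalling encoded by Ctnnb1. It used mouse embryonic stem (ES) cells and epiblast-like cells, here epiLC, a state into which ES cells pass on their way to differentiation. Of the 50 samples in the series, 32 were RNA libraries. All ES cells were kept in 2i, a medium with inhibitors of the kinases MEK and GSK3. GSK3 marks β-catenin for destruction, so that its inhibition stabilizes the protein in treated and control ES cells alike.

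The first group of libraries came from V6.5, an established ES cell line, carrying a short hairpin: shGFP, labelled as mock control (6 libraries), shBcat against β-catenin (2), shE2F6 against the repressor E2F6 (2) and shHP1r against a protein labelled HP1r (2). In the second, cells labelled QKO in 2i carried shBcat or shGFP, labelled 48 h (3 each). The labels do not spell out QKO or say from when the hours count. The third group was unmodified V6.5 in 2i and epiLC after 24 and 48 h (2 each). The last was epiLC carrying shBcat, taken at 24, 48 or 96 h, beside 96 h control epiLC for which the labels name no hairpin (2 each). The first group was deposited in FPKM (fragments scaled to transcript length and to the library's total) and the other 3, each in a table of its own, in TPM (transcript shares scaled to 1 total in every library). Tables were normalized separately, so tests stayed within a table. Nothing in the labels says that the replicates are separate cultures. The p-values therefore reflect variation among these particular libraries, some or all of which may be technical.

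Sequencing depth is unknown for FPKM and TPM values. A library held 12446 to 14151 genes at 1 FPKM or more, or 13924 to 15351 genes at 1 TPM or more. The targeted gene fell in each test of it: Ctnnb1 from 116 to 6.60 FPKM with shBcat in V6.5, from 505 to 64.4 TPM in QKO cells and from 445 to 144 TPM in epiLC at 96 h, E2f6 from 10.0 to 3.06 FPKM with shE2F6, and Cbx3, which encodes HP1γ, from 63.5 to 6.92 FPKM with shHP1r. Of the markers of cell state, 8 of 8 for epiLC rose and 8 of 9 for naive ES cells fell from 2i to 24 h. The 6 V6.5 controls formed 3 pairs, 1 with 2, 3 with 4 and 5 with 6: the median absolute log2 difference over genes was 0.051 to 0.066 within a pair and 0.158 to 0.371 across pairs, beside 0.054 between the shBcat libraries, 0.113 for shE2F6 and 0.193 for shHP1r. The tests count them as 6 libraries, so p-values against them may be too small. Among them, shGFP 3 and 4 stood apart from the other controls. Mitochondrial transcripts made up 20.2% and 19.1% of their FPKM, against 6.12 to 8.82% in the other 4 controls, 22.1 and 22.7% with shE2F6 and 9.64 to 10.2% with shBcat or shHP1r.

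The members lie on 14 chromosomes, some of them near each other: Oasl1 with Oasl2 on chromosome 5, Oas1a, Oas1b, Oas2 and Oas3 in another stretch of that chromosome, Psmb8, Psmb9 and Tap1 within the MHC on chromosome 17, and Ifit1 with Ifit3 on chromosome 19. The sequences just upstream of 7 genes on which the results below turn are printed to show the response elements that mark this gene class. They come from RefSeq promoter windows on GRCm38.p6 (mm10), 250 bases before to 50 after each transcription start, and each printed stretch ends at the base before the annotated gene. All read 5′ to 3′ on the strand of the gene. Capitals mark matches, on either strand, to the core of the interferon-stimulated response element, which reads GAAA, any 2 bases and GAAA again. Matches can overlap each other.
Isg15, chr4:156200819-156200938, minus strand: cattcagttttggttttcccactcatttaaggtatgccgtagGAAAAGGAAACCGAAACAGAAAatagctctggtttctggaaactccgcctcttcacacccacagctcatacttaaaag
Irgm1, chr11:48871421-48871480, minus strand: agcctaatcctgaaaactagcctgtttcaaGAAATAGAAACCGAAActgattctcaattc
Igtp, chr11:58199496-58199555, plus strand: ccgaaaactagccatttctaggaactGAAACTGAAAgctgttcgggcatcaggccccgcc
Ifit1, chr19:34640769-34640888, plus strand: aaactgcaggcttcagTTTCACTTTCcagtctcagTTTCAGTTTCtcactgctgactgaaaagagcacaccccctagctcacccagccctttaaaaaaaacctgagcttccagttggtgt
B2m, chr2:122147537-122147686, plus strand: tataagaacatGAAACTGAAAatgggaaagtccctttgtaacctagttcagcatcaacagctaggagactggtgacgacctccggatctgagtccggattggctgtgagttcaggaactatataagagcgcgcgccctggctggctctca

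The Isg15 stretch holds 3 overlapping matches, Irgm1 2 overlapping ones, Ifit1 2 separate ones, and Igtp and B2m 1 each. In the next pair of sequences, capitals mark the core of the gamma-activated site (TTCNNNGAA, also on either strand).
Irf1, chr11:53769914-53770013, plus strand: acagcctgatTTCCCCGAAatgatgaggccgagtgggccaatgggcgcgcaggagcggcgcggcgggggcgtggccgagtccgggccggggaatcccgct
Psmb8, chr17:34198085-34198194, plus strand: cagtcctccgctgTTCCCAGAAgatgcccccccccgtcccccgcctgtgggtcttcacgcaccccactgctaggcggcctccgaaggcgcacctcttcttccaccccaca

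RefSeq windows were at hand for 28 of the 39 members. The response element core occurred in the windows of 16 of these 28, against 1131 of all 32851 windows (3.44%), and the gamma-activated core in those of 8, against 2726 (8.3%). The 16 were Isg15, Ifit1, Ifit3, Bst2, Irgm1, Irgm2, Igtp, Oas1a, Oas3, B2m, Cxcl10, Rsad2, Stat2, Ddx58, Eif2ak2 and Ifih1. A match describes the letters in the window and does not show that a factor binds there.

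In QKO cells, 22 of the 34 members tested fell with shBcat and none rose (limma, adjusted p under 0.05). Over all 15562 genes tested, 1.56% fell and 0.585% rose. A member was tested where at least 2 libraries reached 1 TPM, which 6 of the 22 did only in shGFP, so that these had to differ: Irf7, Usp18, Mx2, Ifit1, Ifit3 and Oasl2. The other 16 reached 1 TPM in both groups. Over all 39 members the median change was -1.09 on the log2(TPM + 1) scale, against -0.04 over all genes tested, and 33 of 39 had all shBcat libraries below all shGFP libraries, where 24.6% of genes did. Irf1 alone had them all above, where 10.9% of genes did. At 2-fold or more, 15 members fell, where 0.463% of genes did. The counts depend on single libraries. Leaving out shGFP 1 left 1 call, leaving out shBcat 2 or shBcat 3 left 2 each, and leaving out shGFP 3 gave 30, of which 29 were lower and 1 higher. Over all genes these fits gave 8, 11, 10 and 964 calls, against 334 with every library. With no filter, or with plain moderation of the variances, 8 members passed, where 14 and 19 of all genes did.

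Among the sensors, Ddx58, which encodes the RNA sensor RIG-I, read 7.50, 8.23 and 8.40 TPM with shBcat and 21.6, 26.5 and 19.5 TPM with shGFP. The groups stood well apart, and the difference was -1.37 ± 0.11 (SE, adjusted p = 0.0108). Ifih1, which encodes the RNA sensor MDA5, lay at 0.33 to 0.41 TPM with shBcat and 1.12 to 2.54 TPM with shGFP and missed the threshold (adjusted p = 0.0514). Dhx58, a regulator of both sensors, did so too (adjusted p = 0.23). The nucleic acid sensor Zbp1 stayed under 1 TPM in every library and was not tested.

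Of the transcription factors, Irf9 and Irf7 fell. Irf9, the partner of Stat2, read 14.9, 14.4 and 13.1 TPM with shBcat and 26.8, 30.8 and 24.1 TPM with shGFP (-0.89, adjusted p = 0.0198). Irf7, which drives the interferon alpha genes, read 0.66, 0.45 and 0.74 TPM against 3.81, 5.67 and 3.26 TPM (-1.68, adjusted p = 0.0198). Stat2 was close between the groups, 31.9 to 33.3 against 34.4 to 38.3 TPM, with a difference of -0.13 that did not pass (adjusted p = 0.162). Irf1, an early target of interferon gamma signalling, was the 1 member whose shBcat libraries all lay above the controls. Its values were 12.5, 11.9 and 13.2 TPM with shBcat and 9.30, 8.45 and 11.1 TPM with shGFP, a difference of 0.35 that did not pass (adjusted p = 0.0768).

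Active OAS enzymes answer double-stranded RNA by making the oligoadenylate that activates the nuclease RNase L, which need not hold for every gene of the family. All 5 tested Oas and Oasl genes fell, while Oas3 stayed under 1 TPM. Oas2 read 1.46, 1.21 and 1.54 TPM with shBcat and 4.56, 4.91 and 4.00 TPM with shGFP (-1.19 ± 0.11, adjusted p = 0.0152). Oas1b, annotated as a transcribed pseudogene, read 1.30, 1.03 and 1.09 against 4.90, 4.07 and 3.74 TPM (-1.29 ± 0.12, adjusted p = 0.0152). Oasl1 read 3.68, 3.87 and 3.80 against 7.06, 7.82 and 7.47 TPM (-0.82 ± 0.08, adjusted p = 0.0152). In these 3 genes the controls lay close together. Oas1a, the most abundant of them, read 21.4 to 25.3 against 32.8 to 37.6 TPM (-0.54, adjusted p = 0.0408). Oas1a and Oas1b are similar in sequence, and how the counting split their shared reads is unknown. The same holds for Ifit1 with Ifit3, Mx1 with Mx2, and Irgm2 with Igtp.

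Among the other effectors 9 fell, Ifi27 with the smallest p of all members. Ifi27, an interferon-induced membrane protein gene on chr12:103434189-103440245, read 17.1, 13.8 and 15.5 TPM with shBcat and 76.9, 70.9 and 60.5 TPM with shGFP, and its difference was -2.09 ± 0.11 (adjusted p = 0.0025). Rtp4 read 1.13, 0.99 and 1.00 against 9.29, 12.7 and 6.5 TPM (-2.32 ± 0.20, adjusted p = 0.0152). Eif2ak2, which encodes the translation-blocking kinase PKR, read 29.8, 30.6 and 31.0 TPM with shBcat and 43.5, 48.6 and 44.2 TPM with shGFP, a smaller difference (-0.56 ± 0.05, adjusted p = 0.0152). Bst2, which encodes the tetherin that holds budding virus at the membrane, read 11.1, 11.3 and 13.3 against 51.7, 67.2 and 39.9 TPM (-2.04, adjusted p = 0.0187).

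Ifit1 and Ifit3, whose products bind viral RNA, were at most 0.62 TPM with shBcat. Ifit1 read 5.83, 9.79 and 3.29 TPM with shGFP (-2.17, adjusted p = 0.0408) and Ifit3 5.51, 10.7 and 3.57 TPM (-2.23, adjusted p = 0.0408). In both, shGFP 2 was the highest library and shGFP 3 the lowest control. Mx2 (-1.55), of the Mx GTPase family but annotated as a transcribed pseudogene, the apoptosis gene Xaf1 (-1.09) and Ifi35 (-0.67) fell as well. Cxcl10, a chemokine that draws T cells, read 0.75, 0.55 and 0.66 against 4.29, 6.62 and 1.51 TPM and did not pass (-1.50, adjusted p = 0.0701). Ifi44 just missed the threshold (-1.17, adjusted p = 0.0501). Mx1, also annotated as a transcribed pseudogene, and Rsad2, the gene of viperin, stayed under 1 TPM.

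Irgm1, a GTPase that regulates the attack on vacuoles holding parasites, read 3.91, 3.14 and 3.13 TPM with shBcat and 27.3, 38.9 and 20.3 TPM with shGFP. The 3 control values differed widely among themselves yet all lay far above the knockdown (-2.72 ± 0.22, adjusted p = 0.0152). The related Irgm2 (-1.20, adjusted p = 0.0523) and Igtp (-1.13, adjusted p = 0.0528) did not pass. Isg15, a ubiquitin-like modifier, had the largest difference, -2.90 ± 0.38 (adjusted p = 0.0408). It read 1.14, 1.08 and 0.99 TPM with shBcat against 15.8, 24.6 and 7.53 TPM with shGFP. Usp18, the protease that removes ISG15, read 0.30, 0.22 and 0.34 against 5.23, 6.87 and 2.69 TPM (-2.14, adjusted p = 0.0247). The ubiquitin ligase gene Trim25 (-0.33) and the ADP-ribosyltransferase gene Parp9 (-0.98) fell, while Parp14 did not pass (-0.50, adjusted p = 0.0973).

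None of the 3 tested antigen presentation members passed. B2m, the light chain of MHC class I, read 110, 93.1 and 95.6 TPM with shBcat and 215, 305 and 163 TPM with shGFP (-1.14, adjusted p = 0.0574). The groups were separate, but the control values lay far apart from each other. The peptide transporter gene Tap1 read 5.10 to 5.97 against 6.67 to 9.02 TPM (-0.46, adjusted p = 0.0709). The immunoproteasome gene Psmb9 overlapped between groups, and Psmb8 reached 1 TPM in 1 library only and was not tested.

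**Figure D1:**
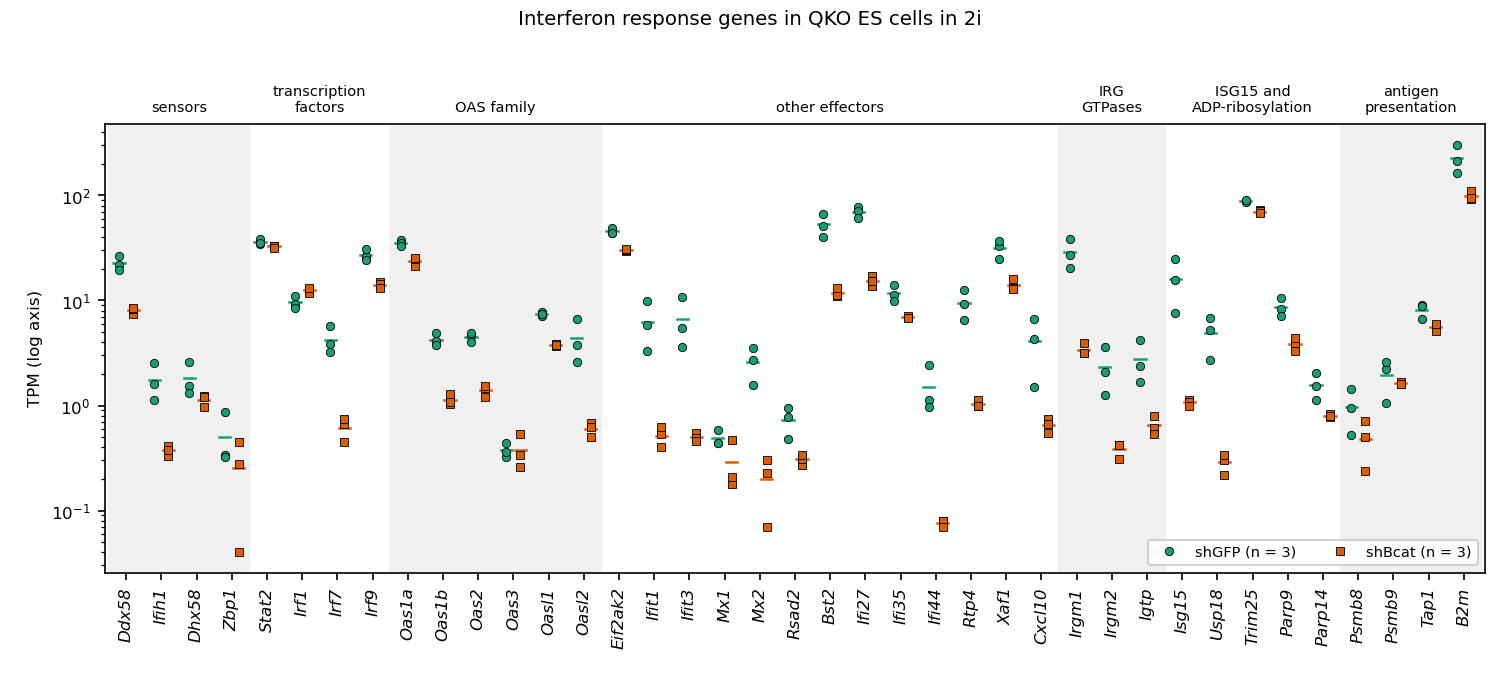
Level of each of the 39 members in every QKO library, in TPM on a log axis, with each shGFP or shBcat library a point and group means as short bars. The libraries of the groups are apart for 33 members with shBcat lower and for Irf1 with shBcat higher, 12.5, 11.9 and 13.2 against 9.30, 8.45 and 11.1 TPM.

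Fibroblast markers moved with the members in these libraries. Of the 17 fibroblast or feeder cell markers tested, 8 fell with shBcat and none rose. The collagen gene Col1a1 read 14.7, 20.0 and 20.1 TPM with shBcat and 85.1, 135 and 55.3 TPM with shGFP (-2.19, adjusted p = 0.047). Col3a1 read 23.1, 28.4 and 36.2 against 140, 263 and 106 TPM (-2.41, adjusted p = 0.047). Both collagens thus followed the order seen in Irgm1 and Isg15, with shGFP 2 highest and shGFP 3 lowest.

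Postn, an extracellular matrix gene, read 1.45, 1.49 and 1.77 against 10.8, 14.8 and 7.09 TPM (-2.16, adjusted p = 0.0198), and Dcn, which encodes a matrix proteoglycan, 6.45, 6.14 and 6.76 against 30.5, 49.0 and 21.1 TPM (-2.13, adjusted p = 0.0408). Fn1, the fibronectin gene, overlapped between the groups (adjusted p = 0.648), and Twist2 was not tested. The summed level of all 18 markers was 1335 to 1404 TPM with shBcat and 1613 to 2470 TPM with shGFP, of which Fn1 and Vim made the larger share. Without those genes the sums were 110 to 122 against 353 to 861 TPM. No marker was at 0 throughout. The 6 matrix genes Col1a1, Col1a2, Col3a1, Postn, Lum and Dcn summed to 51.3 to 78.7 TPM with shBcat and 227 to 544 TPM with shGFP, and, in a table normalized apart, to 0.39 and 0.33 TPM in unmodified V6.5 ES cells.

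The shGFP libraries kept 1 order in both lists. Library 2 was highest for 31 of 39 members and for 17 of 18 fibroblast markers, and library 3 was lowest for 31 and 17. The whole order, 2 above 1 above 3, occurred in 27 members (69.2%), 16 fibroblast markers (88.9%), 1 of 9 naive ES cell markers (11.1%) and 25.6% of all genes tested. The median ratio of the mean in shGFP to the mean in shBcat was 2.39 over members, 4.16 over fibroblast markers and 0.983 over naive markers. The part of fibroblast RNA in the members' levels was not tested, and in bulk RNA fewer cells of a type and less RNA per cell cannot be told apart. Naive markers summed to 5663 to 5992 TPM with shBcat and 5308 to 6081 TPM with shGFP. Blood and immune cell markers summed to 30.4 to 36.2 against 33.7 to 38.6 TPM. The leukocyte gene Ptprc was at most 0.01 TPM, Tyrobp was at 0 in every library, and none of the 4 such markers tested passed.

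**Figure D2:**
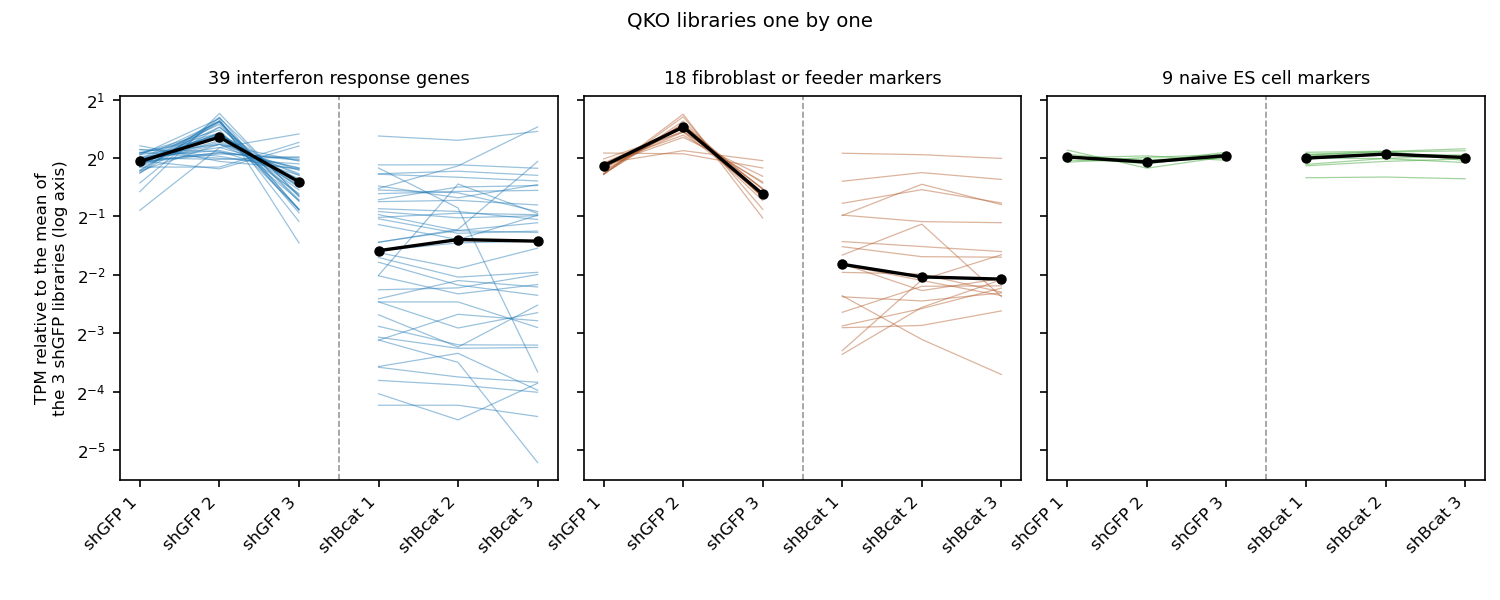
TPM of 39 members, 18 fibroblast markers and 9 naive ES cell markers in each QKO library relative to the gene's mean over the 3 shGFP libraries, on a log axis, with 1 thin line per gene and the median over genes in black. Among the controls, shGFP 2 is highest for 31 of 39 members and 17 of 18 fibroblast markers, and the shBcat medians lie below the controls in these panels but not in that of the naive markers.

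The signalling steps above the members, and related lists, are set here against the 1.56% of all genes that fell. Of 16 tested genes for interferons, receptors and signalling, 2 fell, among them the kinase gene Jak1 (-0.35, adjusted p = 0.047). Of the interferons looked at, Ifna4 and Ifnl2 were at 0 in every library and Ifnb1 was at most 0.12 TPM. In the upstream nucleic acid sensing list, 1 of 17 fell. Of 30 tested further interferon-stimulated genes that are no members, 6 fell and none rose, among them Lgals3bp (-1.49) and Ifi204 (-1.70). Of 15 MHC class I genes, Tapbp (-0.68) and Pdia3 (-0.31) fell.

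In V6.5 cells with a hairpin, few members reached the level needed for a test: 18 of the 28 listed had at least 1 FPKM in 2 libraries. The other 10 listed, among them Ifih1, Psmb8, Psmb9 and Rsad2, lay lower. The most abundant were Bst2, Trim25, B2m and Stat2. With shBcat, none of the 18 passed (limma, 0 calls and 6 at an unadjusted p under 0.05), where 8.71% of all 14407 genes tested did. Of the 28, 8 had both shBcat libraries below all 6 controls and 2 had both above, where 17.6% and 16.6% of genes did. The median difference over the 28 was -0.14 on the log2(FPKM + 1) scale, against 0.01 over all genes tested. The 6 shGFP libraries serve as controls for the shBcat, shE2F6 and shHP1r comparisons alike.

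The members nearest the threshold with shBcat were Oasl2, Eif2ak2, Irf9 and Igtp. Oasl2 read 0.172 FPKM in both shBcat libraries and from 0.373 to 0.648 FPKM, median 0.434, with shGFP (-0.34, adjusted p = 0.0614). Eif2ak2 read 4.53 and 4.73 FPKM against 5.43 to 6.84 FPKM (-0.35, adjusted p = 0.0642). Igtp went the other way, with 0.791 and 0.988 FPKM against 0.176 to 0.654 FPKM, median 0.409 (0.43, adjusted p = 0.111). In all 3 the groups did not overlap. Irgm1 was at 0.245 and 0.169 FPKM against 0.712 to 1.31 FPKM in the controls (-0.76, adjusted p = 0.134).

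The control libraries with the high mitochondrial share bear on these counts. Libraries shGFP 3 and 4 were both below the other 4 controls for 22 of the 28 members and both above for 3, Ddx58, Rsad2 and B2m, where 56.8% and 18.4% of genes were. Member levels summed to 94.2 and 94.3 FPKM in them and to 128 to 141 FPKM in the other 4. Bst2, for one, read 8.35 and 8.79 FPKM in shGFP 3 and 4 and 23.9 to 42.5 FPKM in the other controls. With both left out, a choice made after seeing the data, 6 members passed with shBcat, all lower, where 13.5% of genes fell and 6.28% rose: Irf1 (-0.78, adjusted p = 0.0274), Ifi35 (-0.86), Irf9 (-0.43), Oas1a (-0.63), Oasl2 (-0.39) and Ifi27 (-0.46). The shE2F6 libraries have a high mitochondrial share too. With a term for the high mitochondrial share in the fit, 8 members passed with shBcat and 0 with shE2F6. Over all 14407 genes tested, 3473 and 257 passed in these fits.

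With shE2F6, again none of the 18 passed (limma, 0 calls and 3 at an unadjusted p under 0.05, where 1.06% of all genes passed). Of the 28 members, 3 had both shE2F6 libraries above all controls and 3 below, where 7.32% and 26.5% of genes did. Oas1a read 3.33 and 2.93 FPKM against 3.83 to 8.87 FPKM, median 8.09 (-0.88, adjusted p = 0.093). Oasl2 read 0.819 and 0.822 FPKM against 0.373 to 0.648 FPKM (0.30, adjusted p = 0.0954). Bst2 read 9.04 and 7.44 FPKM (-1.23, adjusted p = 0.147), next to shGFP 3 and 4 and far under the rest. Trim25 followed (-0.40, adjusted p = 0.179). With shGFP 3 and 4 left out, 8 passed, 6 of them lower and B2m (0.70) and Oasl2 (0.24) higher. Bst2 then stood at -1.82 and Oas1a at -1.19. In that fit 6798 of 14407 genes were lower and 1697 higher, and the median over all genes was -0.28.

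With shHP1r, 4 members rose and none fell, where 5.89% of genes rose and 1.7% fell. The 4 reached 1 FPKM only with shHP1r, so they had to differ to be tested, and their count is no measure of the others. Oasl2 read 1.64 and 1.79 FPKM against 0.373 to 0.648 FPKM with shGFP (0.87 ± 0.10, adjusted p = 0.000255). Igtp read 2.17 and 1.55 against 0.176 to 0.654 FPKM (1.02 ± 0.15, adjusted p = 0.00175). For both genes the shHP1r libraries also lay above all shE2F6 and shBcat libraries. Ifi27 read 1.64 and 1.68 against 0.0694 to 0.631 FPKM, median 0.403 (1.01 ± 0.16, adjusted p = 0.0025), and Parp14 1.69 and 1.26 against 0.405 to 0.721 FPKM (0.68 ± 0.11, adjusted p = 0.00278). Without either shHP1r library these 4 fell below the level needed for a test, so that 14 members were tested. None of them passed without shHP1r 1, and 2 did without shHP1r 2, neither of them among the 4. With the libraries averaged in their pairs no member and no gene at all passed. With shGFP 3 and 4 left out 7 members passed, with Ifi35, Parp9 and B2m added, where 7.91% of genes rose and 8.26% fell.

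Of the 28 members, 12 had both shHP1r libraries above all 6 controls and 1, Eif2ak2, had both below, where 14.2% and 9.84% of genes did. The median difference was 0.39, against 0.04 over all genes tested. The shHP1r libraries differed from each other in these genes. Library 1 lay above every control for 19 of the 28 and library 2 for 13, where 28.3% and 21.7% of genes did. Library 1 exceeded library 2 for 21 of the 28, with a median ratio of 1.43, where 7215 of 14407 genes did, with a median ratio of 1.00. Psmb8, an immunoproteasome subunit, read 1.89 FPKM in library 1 and 0.319 FPKM in library 2, against 0.0260 to 0.114 FPKM in the controls. Irgm1 read 5.67 and 1.56 FPKM, Zbp1 1.56 and 0.292 FPKM, and Ddx58 3.99 and 1.26 FPKM. For Zbp1 library 2 lay within the control range of 0.144 to 0.404 FPKM, and for Ddx58 it lay under the lowest control, 1.38 FPKM, while library 1 equalled the highest.

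Set against the other knockdowns, shHP1r was higher than shBcat for 6 members: Oasl2 (1.21), Ifi27 (1.32), Parp14 (0.73), Irgm1 (1.78), Parp9 (0.84) and Ifi35 (1.62). Against shE2F6 it was higher for Ifi27, Igtp, Oasl2, Parp14, Tap1 (0.92) and Ifi35 (1.50), again 6, where 12.3% of genes were. Over all genes 6.97% were higher than with shBcat. Within the groups compared, 4 of the 6 in the first comparison and 5 of the 6 in the second reached 1 FPKM only with shHP1r. Of these, Irgm1 in the first and Tap1 in the second also reached it in shGFP libraries. Oasl2, Ifi27, Parp14 and Igtp reached it in no other group, so that they had to differ to be tested. The counts are thus no measure of the other members. These comparisons share the shHP1r libraries. Both counts of members were lower with any library of the compared groups left out. Counts over all genes were lower too, except in the first comparison without shHP1r 2. Fibroblast markers had 1 of 6 tested higher with shHP1r than with shGFP, summing to 193 and 205 against 163 to 231 FPKM. Without Fn1 and Vim the groups were apart, with sums of 10.9 and 9.46 against 4.06 to 7.78 FPKM. Blood and immune markers had 1 of 4 higher, summing to 21.0 and 16.4 against 12.3 to 17.7 FPKM. The part of either list in the members' levels was not tested. Of 19 further interferon-stimulated genes tested 4 rose with shHP1r, Gbp2 most (1.78), and of 14 MHC class I genes 3 rose, Erap1 by 1.09. In the interferon and receptor list 2 of 14 rose.

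**Figure D3:**
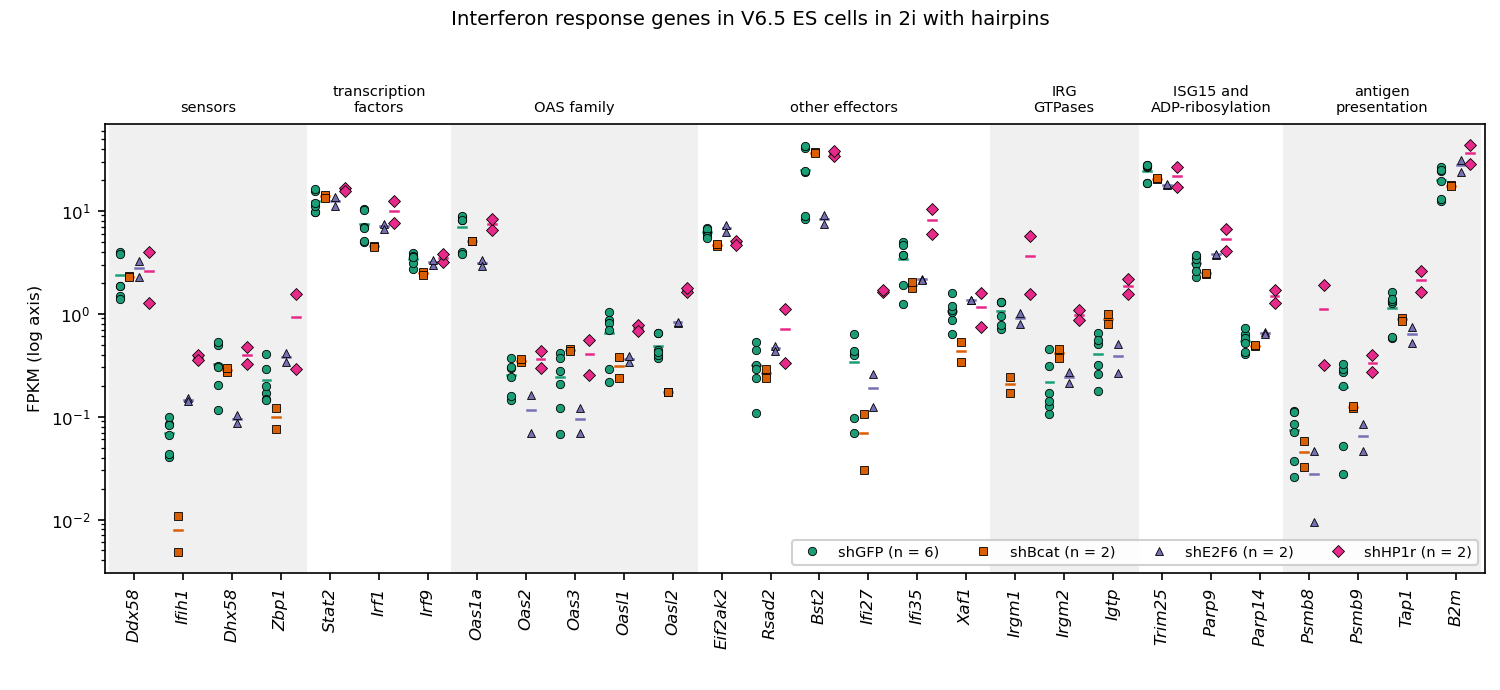
Level of the 28 members listed in the FPKM table in every V6.5 hairpin library, on a log axis with each library a point and group means as short bars. Both shHP1r libraries lie above all 6 shGFP libraries for 12 members, with Oasl2 at 1.64 and 1.79 against 0.373 to 0.648 FPKM, and the controls themselves spread widely for Bst2, from 8.35 to 42.5 FPKM.

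On the way from 2i to epiLC the members did not move as 1 group. From 2i to 24 h, 16 of 31 tested members fell and 7 rose, where 39.8% of genes fell and 36.2% rose. From 24 to 48 h, 23 rose and 4 fell, where 45.2% of genes rose and 28.9% fell. At 2-fold or more, 15 members rose between 24 and 48 h, where 11.7% of the 16559 genes tested did. Of the 23, 8 reached 1 TPM in 48 h epiLC but not at 24 h, and the other 15 reached it at both times. Isg15, Zbp1, Ifih1, Irgm2, Oas1b, Rsad2 and Cxcl10 reached 1 TPM at 48 h only, so that these had to differ to be tested. In the first step, 6 of the 16 that fell and 3 of the 7 that rose did not reach 1 TPM in both groups. The median change over all 39 was -0.15 in the first step and 0.79 in the second, against -0.04 and 0.12 over all genes. Compared with 2i directly, 21 were higher at 48 h and 7 lower, where 45.1% and 30.8% of genes were. The steps share the 24 h libraries, and the comparisons with 2i share the 2i libraries.

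The first set of members, 7 in number, showed no call from 2i to 24 h and then rose: Irf1, Irgm2, Igtp, Isg15, Psmb8, Psmb9 and Tap1. Isg15 read 0.13 and 0.32 TPM in 2i, 0.30 and 0.22 TPM at 24 h and 12.4 and 12.0 TPM at 48 h (3.39 ± 0.10 from 24 to 48 h, adjusted p = 5.98e-07). Psmb8 read 1.34 and 1.84, then 0.92 and 1.53, then 20.9 and 22.4 TPM (3.36 ± 0.15, adjusted p = 3.15e-06). Irf1 read 21.8 and 22.0, then 21.0 and 20.5, then 84.1 and 85.0 TPM (1.98 ± 0.03, adjusted p = 1.32e-07). In all 3 the 48 h libraries lay far above the other 4, which were close together. Tap1 went from 3.14 and 2.56 to 14.6 and 15.8 TPM (2.08 ± 0.09, adjusted p = 2.44e-06).

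Another 10 members fell first and then rose: Ifih1, Zbp1, Stat2, Oas1b, Eif2ak2, Bst2, Ifi27, Ifi35, Parp9 and B2m. B2m read 38.1 and 34.4 TPM in 2i, 8.99 and 8.69 TPM at 24 h and 47.3 and 52.0 TPM at 48 h. It fell by 1.92 (adjusted p = 6.35e-07) and then rose by 2.36 ± 0.07 (adjusted p = 5e-07), to a level above that in 2i. Stat2 read 37.2 and 38.4, then 12.2 and 11.6, then 14.7 and 16.0 TPM, so that its rise (0.34) was small beside its fall (-1.59). Bst2, the most abundant member, read 161 and 157, then 140 and 144, then 276 and 302 TPM (1.01 ± 0.05, adjusted p = 2.55e-06). Parp9 rose from 5.54 and 6.01 to 20.2 and 19.9 TPM (1.64 ± 0.06, adjusted p = 9.65e-07).

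In both steps 6 members rose: Oasl2, Rsad2, Xaf1, Cxcl10, Irgm1 and Parp14. Oasl2 read 1.68 and 1.49, then 3.60 and 4.44, then 34.9 and 32.9 TPM (2.80 ± 0.09 in the second step, adjusted p = 9.25e-07). Irgm1 read 2.33 and 2.55, then 8.28 and 8.25, then 18.7 and 16.8 TPM, with rises of 1.43 and 1.02. Cxcl10 was at 0 and 0.02 TPM in 2i and reached 4.24 and 3.90 TPM at 48 h. None of these had overlapping libraries between the times.

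In both steps 4 members fell: Oas1a, Oas2, Oasl1 and Trim25. Oas1a read 14.5 and 15.2 TPM in 2i, 1.66 and 1.75 TPM at 24 h and 0.73 and 0.87 TPM at 48 h. It was lower by 2.55 in the first step (adjusted p = 4.03e-07) and stood at -3.14 at 48 h against 2i. Trim25 read 43.6 and 44.5, then 16.3 and 16.8, then 9.46 and 9.92 TPM (-1.36 and -0.71). The OAS family was therefore split, with Oasl2 and Oas1b rising from 24 to 48 h, Oas1a, Oas2 and Oasl1 falling, and Oas3 without a call. Irf9 and Dhx58 fell to 24 h with no call after it, and Ddx58 rose to 24 h (0.95) with no call after it (0.10, adjusted p = 0.373). The 8 members not tested were Irf7, Ifit1, Ifit3, Mx1, Mx2, Ifi44, Rtp4 and Usp18, all under 1 TPM in every library. Ifi44 was at most 0.01 TPM, and Ifit3 reached 0.56 and 0.45 TPM at 48 h.

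**Figure D4:**
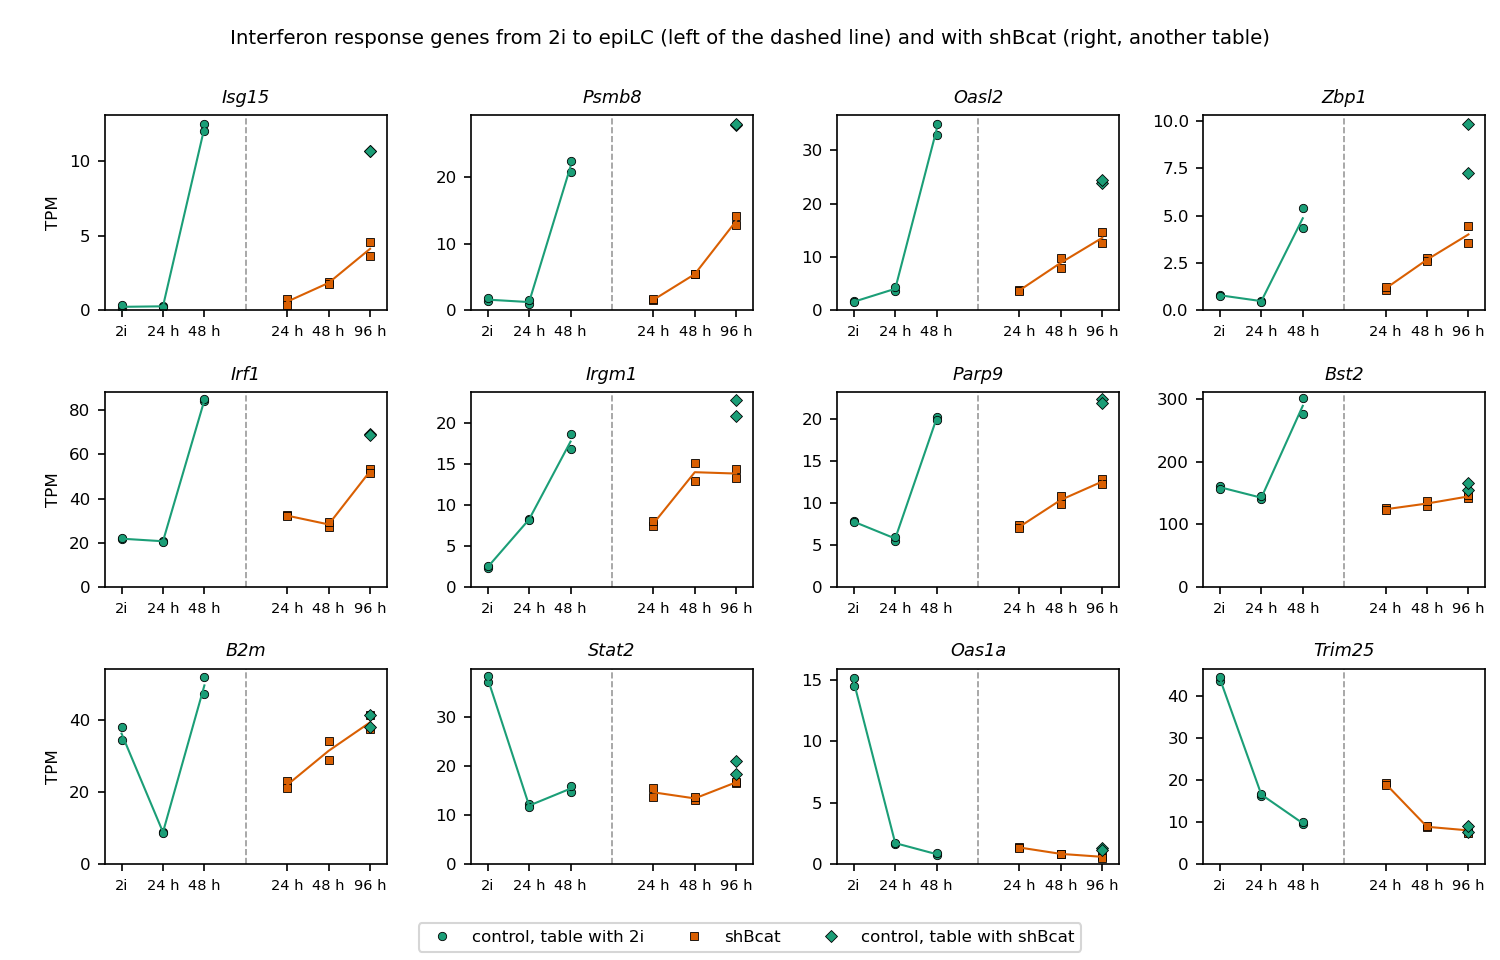
TPM of 12 members, picked after their values were seen, in unmodified 2i ES cells and control epiLC and, in a table normalized apart, in shBcat epiLC and 96 h control epiLC, each library a point and lines through the means. Isg15 goes from 0.30 and 0.22 TPM at 24 h to 12.4 and 12.0 TPM at 48 h in control epiLC, while Oas1a goes down from 14.5 and 15.2 TPM in 2i.

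Other lists of the pathway are set here against the 45.2% of all genes that rose from 24 to 48 h and the 28.9% that fell. Of 17 tested genes for interferons, receptors and signalling 15 rose and 1, the phosphatase gene Ptpn2, fell. The kinase gene Jak2 went from 1.61 and 1.57 to 11.3 and 11.8 TPM, and Irf2 from 0.17 and 0.08 to 7.11 and 9.44 TPM. Ifnb1 was at 0 in every library. Of 27 further interferon-stimulated genes 20 rose and 7 fell, and of 14 MHC class I genes 12 rose and none fell. Of 16 upstream sensing genes 7 rose and 4 fell, near the shares over all genes, with a median change of 0.09 against 0.12. Fibroblast markers had 9 of 11 higher and 2 lower, their 6 matrix genes summing to 3.88 and 4.28 TPM at 24 h and 12.2 and 10.8 TPM at 48 h, against 0.39 and 0.33 TPM in 2i. Their part in the members' rise was not tested. Of the 4 immune markers tested, 3 fell and none rose.

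In epiLC at 96 h, 12 of 29 tested members were lower with shBcat than in control and none was higher, where 2.54% of genes were lower and 2.29% higher. Of the 12, 9 reached 1 TPM in both groups, and Rtp4, Ifih1 and Oas1a only in control. Rtp4 and Ifih1 did not reach it in shBcat epiLC at any time, so that these had to differ to be tested. Of all 39 members, 29 had both shBcat libraries below both control libraries, where 24.6% of genes did, and none had both above, where 20.4% did. The median difference was -0.26, against -0.01 over all genes. The labels name no hairpin for the control, so that β-catenin loss and the presence of a hairpin cannot be told apart here. With any library of the compared groups left out, fewer members and fewer of all genes passed.

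Psmb8 had the smallest p. It read 28.0 and 28.0 TPM in control and 14.1 and 12.8 TPM with shBcat (-1.01 ± 0.08, adjusted p = 0.000605). Isg15 read 10.7 and 10.7 TPM against 3.66 and 4.56 TPM (-1.20 ± 0.14, adjusted p = 0.00428). On the log2(TPM + 1) scale these 2 passed at 2-fold or more, where 0.183% of genes did so downward. That scale understates low genes: the mean TPM also fell by more than 2-fold for Zbp1 (4.01 against 8.55), Rtp4 (0.64 against 1.67), Ifih1 (0.545 against 1.26) and Oas1a (0.585 against 1.23). Parp9 read 22.4 and 22.0 against 12.9 and 12.3 TPM (-0.77 ± 0.07, adjusted p = 0.00134).

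Irf1, the 1 transcription factor among the 12, read 69.3 and 68.8 TPM in control and 53.3 and 51.5 TPM with shBcat (-0.39 ± 0.06, adjusted p = 0.00898). Oasl2 read 23.8 and 24.4 against 14.6 and 12.6 TPM (-0.79 ± 0.11, adjusted p = 0.007). Ifi35 (-0.64 ± 0.08, adjusted p = 0.00618), Irgm1 (-0.62 ± 0.09, adjusted p = 0.0106) and Zbp1 (-0.92 ± 0.15, adjusted p = 0.0136) completed the 8 with the smallest p. Within each group the libraries were close, for Irgm1 22.8 and 20.9 in control and 13.3 and 14.5 TPM with shBcat. Rtp4, Parp14, Ifih1 and Oas1a also fell, with adjusted p from 0.0158 to 0.0425.

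Other members of the same families did not pass. B2m overlapped, at 38.0 and 41.4 TPM in control and 37.5 and 41.3 TPM with shBcat (adjusted p = 0.965). Tap1 read 8.33 and 9.53 against 7.94 and 8.13 TPM (adjusted p = 0.486), and Psmb9 10.1 and 9.80 against 5.49 and 6.93 TPM (-0.61, adjusted p = 0.126). Of the antigen presentation members, Psmb8 alone passed. Too low for a test were 10 members: Irf7, Oas2, Ifit1, Ifit3, Mx1, Mx2, Rsad2, Ifi27, Ifi44 and Usp18. Ifi44 was at 0 in all 8 libraries of that table.

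**Figure D5:**
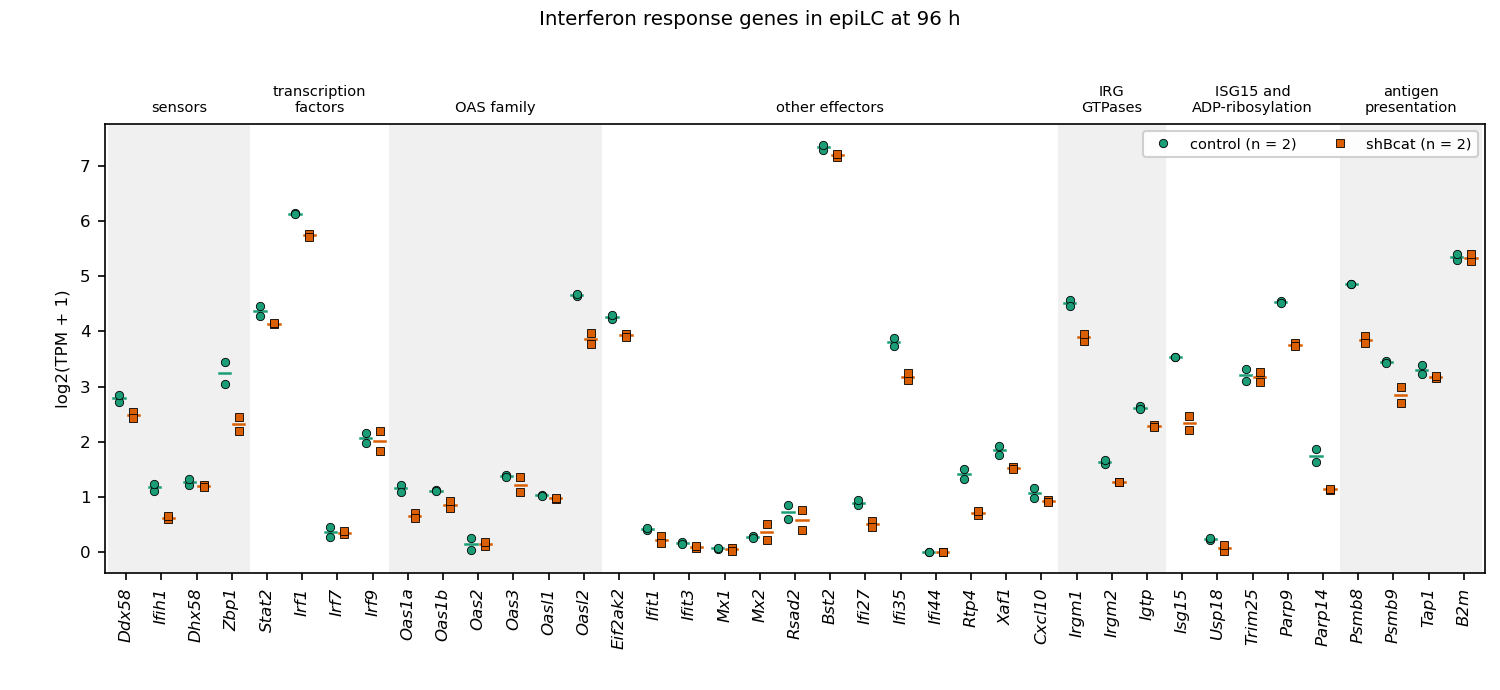
Level of each of the 39 members in control and shBcat epiLC at 96 h, as log2(TPM + 1), with each library a point and group means as short bars. Both shBcat libraries lie below both controls for 29 members, among them Psmb8 with 14.1 and 12.8 against 28.0 and 28.0 TPM, while B2m overlaps.

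Among other lists at 96 h, 8 of 14 MHC class I genes fell with shBcat and none rose, H2-K1 from a mean of 209 to 131 TPM (-0.67, adjusted p = 0.00122), H2-Q4 by 0.76 and Tap2 by 0.78 on the log2 scale. Of 26 further interferon-stimulated genes 7 fell and none rose, among them Gbp2 (-0.55). Of the interferon, receptor and signalling list, 0 of 16 passed, and of the sensing list 0 of 14. Fibroblast markers had 2 of 10 higher, Vim and Dcn, with the 6 matrix genes at 4.07 and 3.50 TPM in control and 4.61 and 4.68 TPM with shBcat. Without Fn1 and Vim, the marker sums overlapped, at 15.4 and 16.6 TPM in control and 16.2 and 18.6 TPM with shBcat. The markers' part in the members' difference was not tested. Mitochondrial transcripts were higher with shBcat for 6 of 13, and their sums were 47147 and 48172 against 37896 and 38696 TPM. Their part in the members' levels was not tested.

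Within shBcat epiLC, normalized in 1 table, 11 of 29 tested members rose and 4 fell from 24 to 48 h, where 15.7% and 17.8% of genes did, and 12 rose and none fell from 48 to 96 h, where 25.2% and 9.83% did. Both steps share the 48 h libraries. Psmb8 read 1.47 and 1.65, then 5.41 and 5.45, then 14.1 and 12.8 TPM, with rises of 1.33 (adjusted p = 3.7e-05) and 1.17 (adjusted p = 9.85e-05). Isg15 read 0.78 and 0.37, then 1.88 and 1.78, then 3.66 and 4.56 TPM, with rises of 0.86 and 0.85. Both climbed in each step. Irf1 read 32.5 and 32.1, then 27.2 and 29.5, then 53.3 and 51.5 TPM, a small fall (-0.18, adjusted p = 0.0394) and then a rise of 0.87 (adjusted p = 8.43e-05). Trim25 (-1.03) and Ddx58 (-0.70) fell from 24 to 48 h. From 48 to 96 h, fewer members and fewer of all genes passed with any library of these times left out.

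Control and shBcat epiLC at 24 and 48 h lie in tables normalized apart, so their values are given side by side without a test. At 48 h both shBcat libraries were below both controls for 31 of 39 members, above them for 4 and overlapping for 4, and at 24 h for 10, 17 and 12. The shares of all genes apart in this way are not given here, so these counts do not set the members apart from other genes. The 4 genes given next were picked after their values were seen and do not stand for all: Oasl1 was higher with shBcat at 48 h (1.26 to 1.28 against 0.42 to 0.80 TPM), and Oas1a and Eif2ak2 overlapped. At that time Isg15 read 12.4 and 12.0 TPM in control and 1.88 and 1.78 TPM with shBcat, and Psmb8 20.9 and 22.4 against 5.41 and 5.45 TPM. Oasl2 read 34.9 and 32.9 TPM in control and 9.85 and 7.98 TPM with shBcat. Irf1 read 84.1 and 85.0 TPM in control and 27.2 and 29.5 TPM with shBcat. At 24 h control and shBcat values were 0.30 and 0.22 against 0.78 and 0.37 TPM for Isg15, and 21.0 and 20.5 against 32.5 and 32.1 TPM for Irf1. Psmb8 (0.92 to 1.53 against 1.47 to 1.65 TPM) and Oasl2 (3.60 to 4.44 against 3.68 to 3.77 TPM) overlapped at 24 h.

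Comparisons that share no library can be set beside each other. Of the 22 members lower with shBcat in QKO cells and the 12 lower in 96 h epiLC, 7 were in both, 31.8% of the first and 58.3% of the second: Ifi35, Irgm1, Isg15, Oas1a, Oasl2, Parp9 and Rtp4. Of the 23 that rose from 24 to 48 h in control epiLC and the 12 lower with shBcat at 96 h, 10 were in both, 43.5% and 83.3%: Ifi35, Ifih1, Irf1, Irgm1, Isg15, Oasl2, Parp14, Parp9, Psmb8 and Zbp1. Of the same 23 and the 11 that rose over these hours with shBcat, 10 were in both, 43.5% and 90.9%. In each of these pairs 26 to 28 members were tested on both sides. Of all tested members, 22 of 34 fell with shBcat in QKO cells and 23 of 31 rose from 24 to 48 h in control epiLC. High overlaps follow from such shares, so they do not show that the comparisons are linked. Ifih1 had to differ to be tested in both comparisons of the second pair.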

How the data were processed

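Gene expression was measured by RNA sequencing in 32 libraries. The 18 chromatin immunoprecipitation and input samples were not analysed here. The authors deposited FPKM values for the 12 V6.5 hairpin libraries. The submitters' processing notes list Bowtie2, bcl2fastq 2.18, Cufflinks 2.2.1 and TopHat2 2.0.13 for them. The deposited TPM values are in 3 tables of 6, 6 and 8 libraries, for which the same notes list RSEM, STAR, Bowtie2 and bcl2fastq 2.18. Versions of the first 3 are not given in the sources used here. The build is mm10 for both. Per the labels' protocols, RNA was extracted with TRIzol, treated with DNase and prepared with a TruSeq RNA kit. The FPKM table held 2 columns named for shHP1r 2. The one headed as FPKM was used, and the other, 1 column with values below 0, was not. Neither unit keeps sequencing depth, so no counting interval is given, and the number of libraries limits the precision.

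Deposited values were transformed to log2(value + 1). A gene entered the test when 2 or more libraries of its table held 1 or more, with all groups of a table in 1 limma fit (limma 3.58.1, statmod 1.5.0, R 4.3.3), a variance trend and robust moderation. Tests were two-sided with Benjamini-Hochberg adjustment over all genes tested and a threshold of 0.05. Fold changes on this scale understate the change of low genes. The analysis was tested on simulated data. Members and lists (fibroblast, immune, naive and epiLC markers, interferon signalling, nucleic acid sensing, further interferon-stimulated genes, MHC class I, mitochondrial transcripts) were chosen with earlier results of these data known. Full statistics were given to at most the 8 members with the smallest p past the threshold, and to 4 as values where fewer than 4 passed. Members named beside these were singled out after their values were seen. The values of 1 signalling gene are not reported here.

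Alternatives were median-of-ratios scaling, a 2-fold minimum, plain moderation, another pseudocount (0.1), other filters (none, or 5 in place of 1), a fit of only the compared groups, V6.5 libraries averaged in pairs, leave-one-out fits, a replicate block and a term for the high mitochondrial share. Leaving out shGFP 3 and 4 together was added after seeing the data. Replicate numbers did not pair the libraries: same-numbered QKO libraries correlated at -0.012, -0.042 and 0.131 in their deviations from the group means. Control and shBcat epiLC at 96 h correlated at 0.283, where 2 libraries a group cannot show pairing.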

Additional observations from a re-analysis of the deposited data

Results flagged for a closer look

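The change of Irf1 and of Igtp with shBcat went opposite ways in different cells, with every shBcat library on one side of all controls in one setting and on the other side in the other. These differences between settings were not tested, since the tables were normalized separately. Of the values below, Irf1 in epiLC alone passed the test within its table. Irf1 stood at -0.57 on the log2 scale in V6.5 ES cells in 2i and at 0.35 in QKO cells, a difference of -0.92. In epiLC at 96 h it stood at -0.39, so QKO cells exceeded epiLC by 0.75. Igtp stood at 0.43 in V6.5, at -1.13 in QKO cells and at -0.33 in epiLC at 96 h. V6.5 exceeded QKO cells by 1.57 and epiLC by 0.76. For Igtp, 2 of the V6.5 controls were the libraries with the high mitochondrial share, with 0.258 and 0.176 FPKM against 0.316 to 0.654 FPKM in the other 4 and 0.791 and 0.988 FPKM with shBcat.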

How the results depend on the processing

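Where a named member was still tested, no call reversed under any alternative run: 750 values stayed on their side of the threshold and 114 lost their call in the same direction. Calls lost because a member was no longer tested are not in this tally. Among them are the 4 with shHP1r against shGFP at a minimum of 5. Counts of members called moved more, and the cause was not tested unless fewer genes or samples made it so. Counts over all genes moved too, for shE2F6 from 153 to 8495 without shGFP 3 and 4. For shHP1r against shGFP they went from 1093 to 3296 with the mitochondrial term and to 481 with a minimum of 5. With that term they went from 1341 to 3817 for shHP1r against shBcat and from 2230 to 844 against shE2F6. Moves of the member counts below are therefore not to be read as particular to the members. For shBcat in V6.5 (0 calls) the count was 2 with a pseudocount of 0.1, 1 with no filter, 1 with a fit of the compared groups alone, 2 with median-of-ratios scaling, 8 with a term for the high mitochondrial share, 6 without shGFP 3 and 4, and 0 to 1 with single libraries left out (1 without shGFP 3). For shE2F6 (0) it was 1 with median-of-ratios scaling, 8 without shGFP 3 and 4, and 0 to 2 with single libraries left out (2 without shGFP 3, 1 without shGFP 4). For shHP1r against shGFP (4) it was 9 with no filter, 0 with a minimum of 5, 2 at 2-fold, 0 with libraries averaged in pairs, where each knockdown is 1 sample, 8 with the mitochondrial term, 7 without shGFP 3 and 4, and 0 to 4 with single libraries left out. Against shBcat (6) it was 0 with a minimum of 5, 0 in pairs, 12 with the mitochondrial term and 1 to 4 with single libraries left out (2 without either shBcat library). Against shE2F6 (6) it was 11 with no filter, 0 with a minimum of 5, 3 at 2-fold, 0 in pairs, 1 with the mitochondrial term and 0 to 3 with single libraries left out, 3 without shHP1r 2, 2 without shE2F6 1 and 1 without shE2F6 2. In QKO cells (22) it was 8 with no filter, 8 with plain moderation, 15 at 2-fold and 1 to 30 with single libraries left out. At an unadjusted p under 0.05, 30 to 32 members passed in each of these QKO fits with a library left out, and the share of all genes that did so is not given here. For epiLC at 24 h against 2i (23) it was 11 with a minimum of 5, 6 at 2-fold and 16 to 19 with libraries left out. For 48 against 24 h (27) it was 16, 15 and 18 to 26, and for 48 h against 2i (28) 17 with a minimum of 5 and 19 to 27 with libraries left out. In epiLC at 96 h (12) it was 7 with no filter, 6 with a fit of the compared groups alone, 2 at 2-fold and 5 to 8 with libraries left out. With shBcat from 24 to 48 h (15) it was 4 at 2-fold and 11 to 13 with libraries left out. From 48 to 96 h (12) it was 6 with no filter, 7 with median-of-ratios scaling, 1 at 2-fold and 5 to 8 with libraries left out (6 without 96 h shBcat 2, 7 and 5 without 48 h shBcat 1 and 2). Where a library left out leaves a group with 1, that library is assumed to vary like the others.

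The replicate numbers were only numbers, and the replicate block gave 4 calls for shBcat and 5 for shE2F6 in V6.5, 11 for shHP1r against shBcat and 11 against shE2F6, 17 in QKO cells and 11 in epiLC at 96 h. Over all genes it gave, in the same order, 1552, 7685, 3319, 8039, 138 and 771 calls. In V6.5 the numbers 3 to 6 occur only in shGFP, so the block compares each knockdown with shGFP 1 and 2. Scaling by median of ratios moved the median of all genes for shE2F6 from -0.20 to -0.01.

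Depth is unknown, so low members cannot be bounded, and a member under 1 in every library was not detectable as changed by this filter.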
